A study of Mus musculus with 9 samples.

Results

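The cell cycle and DNA replication genes described here are 45 genes, of 52183 in the deposited table, that were taken by gene symbol from a fixed list and read in all 9 libraries. They comprise 17 genes that act in or just before S phase, 24 genes that act in mitosis, the 3 D-type cyclins, and Stmn1, which encodes the microtubule regulator stathmin. Messenger RNA was measured in endothelial cells of the marrow, which line its vessels, sorted by flow cytometry from the long bones of mice given an antibody to VE-cadherin in vivo. A low-input full-length cDNA kit was used for 3 groups of 3 libraries: 18-month-old mice labelled Thbs1 knockout (Thbs1 encodes thrombospondin-1, a secreted protein of the matrix), aged controls of 18 months, and young controls of 3 months. Strain, altered part of the gene, and any promoter or Cre are not given by the labels, and whether each library is from a mouse of its own is not stated. The p-values therefore measure the spread between these libraries, which may be technical.

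A cell enters the cycle when D-type cyclins with CDK4 and CDK6, then E-type cyclins with CDK2, phosphorylate the RB proteins and free the E2F factors, which turn on the genes of DNA replication. The MCM2 to MCM7 proteins form the helicase that CDC6 and CDT1 load onto replication origins, and PCNA is the sliding clamp of the replicative polymerases. Mitotic genes are switched on later, through the B-MYB and FOXM1 factors, and drive entry into mitosis (CDK1 with cyclin B), spindle assembly and exit. Endothelial cells of adult vessels are mostly out of the cycle.

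Values are FPKM, fragments per length of gene and per depth of library. The recovered depth was 27240000 to 30410000 fragments in the libraries labelled knockout, 22150000 to 24580000 in the aged controls and 22870000 to 23890000 in the young controls. Thbs1 went against the label, with 25.63, 19.45 and 19.84 FPKM in the libraries labelled knockout, against 0.67, 0.82 and 1.17 FPKM in the aged and 4.55, 3.89 and 4.18 FPKM in the young controls. It was higher in the libraries labelled knockout than in the aged controls (limma adjusted p = 2.85e-06), so that group is called by its label only. All 13 endothelial markers had a mean of at least 1 FPKM, and their summed level was 2381 to 2501 FPKM in the libraries labelled knockout, 2544 to 2692 FPKM in the aged controls and 2414 to 2475 FPKM in the young controls. Markers of blood cells were also read. The 7 plasma cell markers summed to 642.3 to 2504 FPKM in the libraries labelled knockout, 1283 to 3870.4 FPKM in the aged controls and 667.3 to 1160.2 FPKM in the young controls. In replicate 1 of the libraries labelled knockout and replicates 1 and 2 of the young controls this sum was nearly all Xbp1 (636.72, 651.06 and 666.43 FPKM). Igkc had 0.87, 6.08 and 1.40 FPKM there and was highest in aged control replicate 1, at 2318.7 FPKM. The plasma cell sum therefore does not measure plasma cells alone. The 12 erythroid markers summed to 159.6 to 297.4, 209.5 to 331.0 and 242.1 to 248.9 FPKM in the libraries labelled knockout, the aged controls and the young controls. Of the 9 blood progenitor markers 4 had a mean of at least 1 FPKM, with Cd34, which endothelium also expresses, at 7.01 to 38.9 FPKM and the leukocyte antigen gene Ptprc at 0.03 to 0.13 FPKM. A gene had to average at least 1 FPKM across all 9 libraries to be tested, which was done with limma on log2(FPKM + 1), and a gene is said to have risen or fallen at a Benjamini-Hochberg adjusted p under 0.05 over all 11796 genes tested. Fold changes on this scale understate those of genes with low values.

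The replication genes were read at higher levels than the mitotic genes, and the sum of the 17 S-phase genes was 3.71 to 7.66 times that of the 24 mitotic genes in single libraries. The median of the mean FPKM was 4.35 over the 17 S-phase genes, 0.871 over the 24 mitotic genes and 9.84 over the 3 D-type cyclins, and Stmn1 averaged 26.6 FPKM. Of the 45 genes, 29 reached the mean of 1 FPKM: 15 of 17 S-phase genes, 10 of 24 mitotic genes, the 3 D-type cyclins and Stmn1. The S-phase genes below it were Cdc6, a helicase loader, and Gins2, a subunit of the active helicase. Of the exonic bases of Gins2 67.3% overlap Gse1 on the other strand, so its values are uncertain. The mitotic genes below it included Mki67, the gene of the proliferation marker Ki-67, at a mean of 0.226 FPKM, and Top2a, a DNA topoisomerase, at 0.627 FPKM. Cenpe and Cenpf, which encode kinetochore proteins, were lowest at 0.0733 and 0.0367 FPKM. Across the 24 mitotic genes, longer gene models had lower FPKM (Spearman rho = -0.68, a description across genes that share libraries), whereas over the 17 S-phase genes rho was 0.02. In bulk RNA, fewer cycling cells and less RNA per cycling cell cannot be told apart.

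The known promoter words of these classes are shown for 4 genes, because they are the sequence feature by which S-phase and mitotic genes are usually told apart. The sequences are from RefSeq (GRCm38.p6), given 5′ to 3′ on the gene's strand from position -180 to position 10, with the gene start as position 1, and capitals mark the words searched for. Ccne1 is shown as the member with the largest called change (chr7:38107481-38107670, minus strand), Mcm6 as a helicase gene (chr1:128359696-128359885, minus strand), and Ccnb2 (chr9:70421545-70421734, minus strand) and Cdc20 (chr4:118437334-118437523, minus strand) as the mitotic genes of highest level.
Ccne1: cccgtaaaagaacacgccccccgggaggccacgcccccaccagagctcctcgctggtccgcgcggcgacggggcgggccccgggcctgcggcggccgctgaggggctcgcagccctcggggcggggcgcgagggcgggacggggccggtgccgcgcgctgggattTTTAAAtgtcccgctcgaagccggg
Mcm6: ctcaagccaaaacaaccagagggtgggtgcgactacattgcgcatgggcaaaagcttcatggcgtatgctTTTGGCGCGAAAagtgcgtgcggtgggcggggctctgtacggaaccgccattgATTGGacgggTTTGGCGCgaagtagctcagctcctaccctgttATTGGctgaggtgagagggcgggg
Ccnb2: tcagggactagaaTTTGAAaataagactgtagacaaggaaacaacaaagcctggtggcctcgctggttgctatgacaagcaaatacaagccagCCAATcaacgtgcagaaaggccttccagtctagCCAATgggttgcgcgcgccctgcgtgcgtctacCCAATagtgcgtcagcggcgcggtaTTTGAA
Cdc20: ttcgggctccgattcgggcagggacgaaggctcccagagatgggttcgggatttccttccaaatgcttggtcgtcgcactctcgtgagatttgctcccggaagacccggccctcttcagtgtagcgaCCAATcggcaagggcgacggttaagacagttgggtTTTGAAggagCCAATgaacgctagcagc

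Mcm6 held the E2F word TTTGGCGC at positions -110 and -47, the reverse complement of another E2F word at -106 that overlaps the first, and ATTGG, the reverse complement of CCAAT, at -57 and -14. Ccnb2 held CCAAT at -87, -54 and -21 and the cell cycle homology word TTTGAA at -167 and 5. Cdc20 held CCAAT at -53 and -8 and TTTGAA at -18 between them. Ccne1 held only TTTAAA, at -15. Matches are a description of letters and not of bound sites.

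The same words were counted on both strands of the 300 bases that RefSeq gives per gene start (250 before and 50 after), with a gene counted if any of its starts held a match. The cell cycle homology words TTTGAA or TTTAAA were found in 18 of the 20 mitotic genes with a sequence (90.0%), in 5 of the 14 S-phase genes (35.7%) and in 30.6% of all 27025 genes. CCAAT was found in 18 of 20 mitotic genes (90.0%), in 8 of 14 S-phase genes (57.1%) and in 41.1% of all genes. An E2F word (TTTCCCGC, TTTCGCGC, TTTGCCGC or TTTGGCGC) was found in 1 of 20 mitotic genes (5%, Cdk1), in 6 of 14 S-phase genes (42.9%, Mcm3, Mcm5, Mcm6, Mcm7, Cdc6 and Cdt1) and in 2.6% of all genes. The E2F words were thus more frequent in the S-phase genes, and the homology words and CCAAT in the mitotic genes. These shares were not tested.

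Setting the libraries labelled knockout against the aged controls asks what differs with the Thbs1 label at 18 months. Of the 29 genes tested Ccne1 alone changed, and it rose, while 4.79% of all genes tested were called in either direction, 2.78% as higher and 2.01% as lower. At an unadjusted p under 0.05 there were 4 of the 29 (Ccne1, Ccne2, Mcm4 and Rrm1), all S-phase genes, against 24.1% of all genes. None of the 10 mitotic genes tested passed, with or without adjustment. The blood progenitor markers summed to 52.6 to 74.9 FPKM in the libraries labelled knockout and 30.4 to 50.8 in the aged controls, without overlap. Cd34, which endothelium also expresses, and Gata2 made up most of this sum in every library. The sum therefore does not measure blood progenitor cells alone. Among these markers Cd34 and Kit were higher without overlap, Gata2 overlapped, and Cd48 was lower without overlap. The endothelial sum given above was lower in the libraries labelled knockout without overlap. Cldn5 alone had 432.13, 569.88 and 426.20 FPKM there and 864.47, 799.38 and 767.16 FPKM in the aged controls. Erg was higher without overlap, and the other endothelial markers overlapped. The part of these markers in the result was not tested.

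Ccne1 encodes cyclin E1, the partner of CDK2 at the entry into S phase (ENSMUSG00000002068, GRCm38 chr7:38097984-38107534, minus strand). It had 3.98, 5.28 and 4.23 FPKM in the libraries labelled knockout, 0.90, 1.21 and 1.94 FPKM in the aged controls and 2.73, 2.23 and 2.94 FPKM in the young controls. All 3 libraries labelled knockout were above all 6 controls, and all 3 aged controls were below all 3 young controls. The group labelled knockout averaged 4.50 ± 0.690 FPKM against 1.35 ± 0.534 FPKM in the aged controls (SD, n = 3 each), 3.33 times as much, with a log2 fold change of 1.24 ± 0.18 SE (95% interval 0.85 to 1.63, limma adjusted p = 0.00643). The call was kept whichever of the 9 libraries was omitted. An exact two-sided permutation test gave p = 0.1, the smallest that 3 against 3 libraries allow. The values rest on 53 to 427 recovered fragments per library, and no exon of Ccne1 overlapped one of another annotated gene.

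Ccne2, which encodes the related cyclin E2, had 1.98, 1.96 and 2.47 FPKM in the libraries labelled knockout, 1.20, 0.84 and 1.44 FPKM in the aged controls and 2.09, 1.59 and 1.71 FPKM in the young controls. The libraries labelled knockout did not overlap the aged controls but overlapped the young controls. Its difference from the aged controls missed the threshold (log2 fold change 0.54 ± 0.15 SE, limma adjusted p = 0.0722). Of its exonic bases 17.4% overlap Ints8 on the other strand, and the strand setting of the counting is not given in the sources used here, so its values are uncertain.

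**Figure D1:**
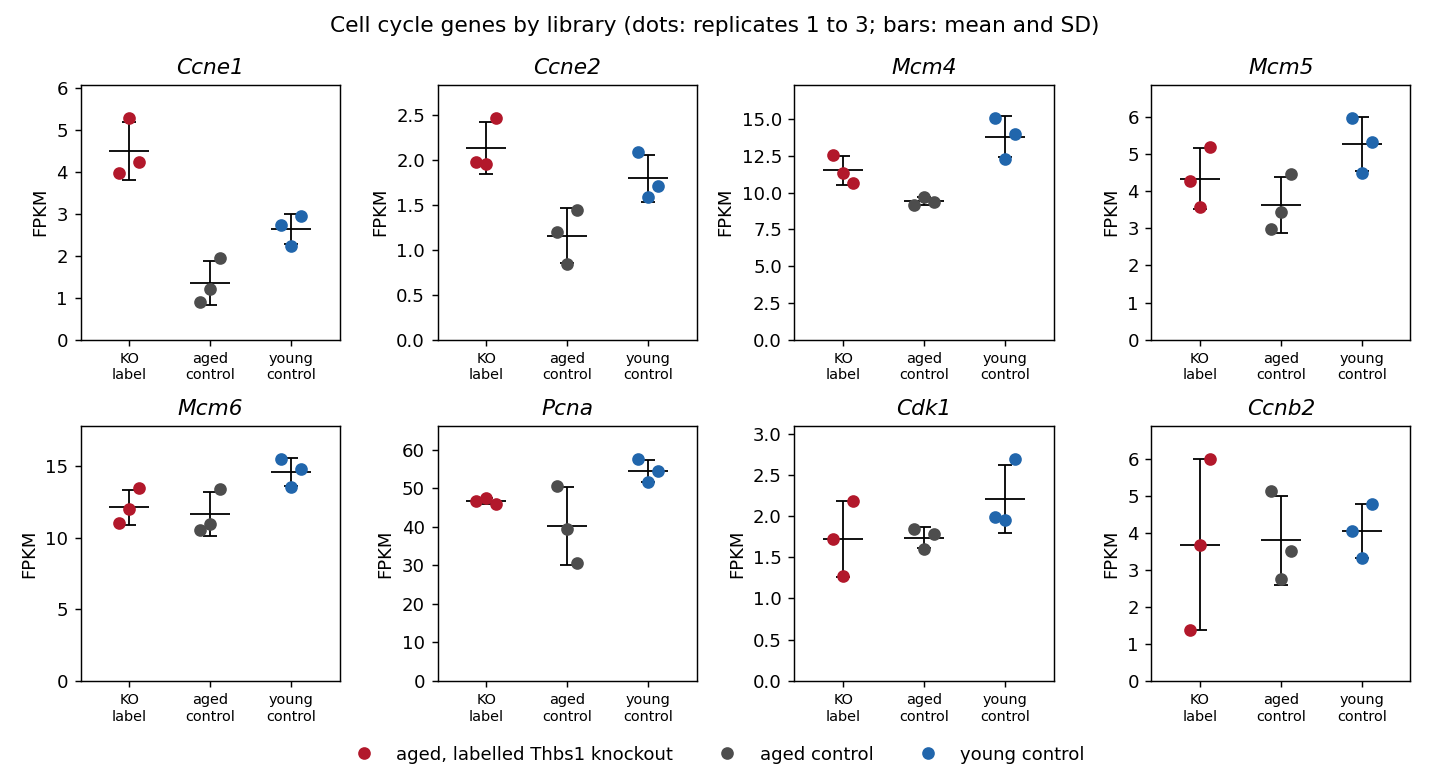
FPKM of 8 cell cycle genes (y axes, each from 0) in the 3 groups, with 1 dot per library and bars for the mean and SD of 3 libraries. Ccne1 lies at 3.98 to 5.28 FPKM in the libraries labelled knockout, above all aged and young controls, and the mitotic genes Cdk1 and Ccnb2 overlap between the libraries labelled knockout and both control groups.

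The helicase genes differed less between the libraries labelled knockout and the aged controls. Mcm4 had 12.57, 11.36 and 10.64 FPKM in the libraries labelled knockout, 9.18, 9.69 and 9.36 FPKM in the aged controls and 15.07, 12.31 and 14.02 FPKM in the young controls. The libraries labelled knockout were all above the aged controls and overlapped the young controls at their highest. The difference from the aged controls was 1.22 times and missed the threshold (log2 fold change 0.26 ± 0.10 SE, adjusted p = 0.152). Mcm2 had 4.16, 4.41 and 4.93 FPKM in the libraries labelled knockout, 3.95, 3.95 and 3.93 FPKM in the aged controls and 5.78, 4.51 and 4.47 FPKM in the young controls, with no overlap between the first 2 groups and adjusted p = 0.449. Mcm3, the most abundant helicase gene, had 25.68, 27.08 and 27.81 FPKM in the libraries labelled knockout, 27.54, 27.19 and 29.35 FPKM in the aged controls and 28.90, 24.42 and 29.86 FPKM in the young controls. Its log2 difference between the libraries labelled knockout and the aged controls had a 95% interval of -0.27 to 0.16.

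The nucleotide supply genes Rrm1 and Tk1 had lower values in the libraries labelled knockout. Rrm1, the large subunit of ribonucleotide reductase, had 5.62, 5.08 and 6.09 FPKM in the libraries labelled knockout, 8.0, 6.38 and 7.01 FPKM in the aged controls and 5.79, 6.25 and 6.12 FPKM in the young controls. Tk1, thymidine kinase, had 1.85, 2.25 and 2.37 FPKM in the libraries labelled knockout, 2.68, 2.78 and 2.87 FPKM in the aged controls and 2.83, 1.88 and 2.42 FPKM in the young controls. For both genes every aged control lay above every library labelled knockout, and neither difference passed (log2 fold changes -0.30 and -0.26, adjusted p = 0.128 and 0.271). The other genes of nucleotide supply overlapped between these groups. Rrm2 stood between 1.76 and 4.92 FPKM in the libraries labelled knockout and between 2.38 and 6.61 FPKM in the aged controls, and Tyms, thymidylate synthase, between 4.14 and 4.42 FPKM and between 4.29 and 5.22 FPKM. Tyms has an annotated pseudogene, Tyms-ps, so its values are uncertain. Groups did not overlap for 4 of the 29 genes in the higher direction (Ccne1, Ccne2, Mcm4 and Mcm2) and for 2 in the lower direction (Rrm1 and Tk1), against 12.1% and 11.1% of all genes tested (23.2% in either direction).

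The aged and young controls were compared for differences with age. Of the 29 genes tested, Mcm4 alone changed, and it fell, against 3.99% of all genes called in either direction, 1.2% as higher and 2.8% as lower. It averaged 9.41 ± 0.259 FPKM in the aged controls and 13.8 ± 1.39 FPKM in the young controls (SD, n = 3 each), or 0.682 times the young level (log2 fold change -0.50 ± 0.10 SE, limma adjusted p = 0.0363). The gene (ENSMUSG00000022673, chr16:15623897-15637400, minus strand) has no exon overlapping another gene. Omitting single libraries ended the call in 6 of 9 cases: without the labelled knockout replicate 3, without the aged control replicates 2 or 3, and without any 1 of the young controls. Markers of other cells moved with age too. Of the 8 stromal markers 4 had a mean of at least 1 FPKM. All 8 summed to 40.4 to 49.2 FPKM in the aged controls and 77.8 to 107.9 FPKM in the young controls, without overlap. Cxcl12 was the largest part, with 22.80, 28.92 and 32.64 FPKM in the aged and 47.15, 49.15 and 41.94 FPKM in the young controls. Lepr, Cxcl12, Adipoq, Col1a2 and Ibsp were lower in the aged controls without overlap, and Col1a1, Bglap and Pdgfrb overlapped. The plasma cell and endothelial sums given above were higher in the aged controls without overlap, but their genes were mixed. Among plasma cell markers Igkc, Mzb1 and Xbp1 were higher without overlap, and Jchain, Sdc1, Ighm and Igha overlapped. Among endothelial markers Cldn5 had 864.47, 799.38 and 767.16 FPKM in the aged and 495.35, 495.02 and 460.51 FPKM in the young controls. Flt4 and Vwf were also higher without overlap. Cdh5, Kdr, Flt1, Erg and Stab2 were lower without overlap, and the others overlapped. Igha was at 0 in 2 young controls and Bglap in 1 aged and 1 young control. Their part in the result was not tested.

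Other S-phase genes had lower values in the aged controls without passing. Pcna, the S-phase gene of highest level, had 46.81, 47.59 and 46.03 FPKM in the libraries labelled knockout, 50.73, 39.49 and 30.51 FPKM in the aged controls and 57.52, 51.58 and 54.43 FPKM in the young controls. The aged controls spread widely and stayed below the young controls, with a log2 fold change of -0.46 ± 0.15 SE (limma adjusted p = 0.0994). Without aged control replicate 1, the highest of that group, Pcna passed. The annotation holds the pseudogenes Pcna-ps1 and Pcna-ps2, so its reads may be shared with near-identical copies. Mcm5 had 4.27, 3.57 and 5.20 FPKM in the libraries labelled knockout, 2.98, 3.45 and 4.47 FPKM in the aged controls and 5.98, 4.51 and 5.34 FPKM in the young controls. Mcm6 had 11.02, 11.98 and 13.45 FPKM in the libraries labelled knockout, 10.57, 10.98 and 13.44 FPKM in the aged controls and 15.48, 13.55 and 14.82 FPKM in the young controls. In both genes each aged control lay below each young control, by a narrow margin in the closest libraries. Their log2 fold changes between aged and young controls were -0.44 and -0.31 (limma adjusted p = 0.116 and 0.128). Ccne1 and Ccne2 also separated aged from young controls, at log2 fold changes of -0.65 ± 0.18 SE and -0.38 ± 0.15 SE (limma adjusted p = 0.0673 and 0.146).

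Of the 29 genes tested, 6 had an unadjusted p under 0.05 between aged and young controls (Ccne1, Ccne2, Mcm4, Mcm5, Mcm6 and Pcna), where 27.7% of all genes did. Groups did not overlap for 8 of the 29 in the lower direction and for 1, Rrm1, in the higher direction, against 21.8% and 13.9% of all genes (35.7% in either direction). The share of the 29 with lower values therefore lay near that of all genes, but it pools the classes. By class, 7 of 15 S-phase genes and 1 of 10 mitotic genes lay lower in the aged controls without overlap. An unadjusted limma p under 0.05 was reached by 6 of 15 S-phase and 0 of 10 mitotic genes. The standard errors of the 10 mitotic genes ran from 0.16 (Cdk1) to 0.34 (Ccnb2), against 0.10 to 0.18 for those 6 S-phase genes. Rrm2, an S-phase gene that did not reach it, had 0.32. The counts of the classes thus rest on unlike precision. Log2 differences were negative for 10 of 15 S-phase and 8 of 10 mitotic genes, and for 56.0% of all genes tested. The difference between the classes was not tested. The median log2 difference between aged and young controls was -0.084 over all 17 S-phase genes and -0.14 over all 24 mitotic genes. These full lists include genes below the minimum level. Over the tested genes alone it was -0.12 for the 15 S-phase and -0.11 for the 10 mitotic genes. The median over all genes tested was -0.045. Between the libraries labelled knockout and the aged controls the medians were 0.037 and -0.0014 over the full S-phase and mitotic lists. Over their tested genes they were 0.057 and -0.011, beside 0.0025 over all genes tested.

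Between the libraries labelled knockout and the young controls none of the 29 genes passed, where 0.212% of all genes tested were called in either direction, 0.0848% as higher and 0.127% as lower. Ccne1 and Mcm4 had an unadjusted p under 0.05, against 9.27% of all genes. Ccne1 had a log2 fold change of 0.59 ± 0.18 SE, 1.71 times (limma adjusted p = 0.32), and Mcm4 had -0.24 ± 0.10 SE (adjusted p = 0.509). Mcm6, Pcna and Mcm7 lay lower in the libraries labelled knockout without overlap, and Ccne1 and Ccnd3 higher, against 14% and 8.46% of all genes (22.4% in either direction). Mcm7 had 5.87, 6.46 and 6.35 FPKM in the libraries labelled knockout, 4.36, 6.46 and 8.62 FPKM in the aged controls and 6.85, 7.32 and 6.55 FPKM in the young controls. The stromal markers summed to 35.6 to 47.2 FPKM in the libraries labelled knockout, below the 77.8 to 107.9 FPKM of the young controls. Their part in the result was not tested. The aged controls are shared by the first 2 comparisons. Opposite values in them, such as those of Ccne1 and Mcm4, are therefore not independent of each other.

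**Figure D2:**
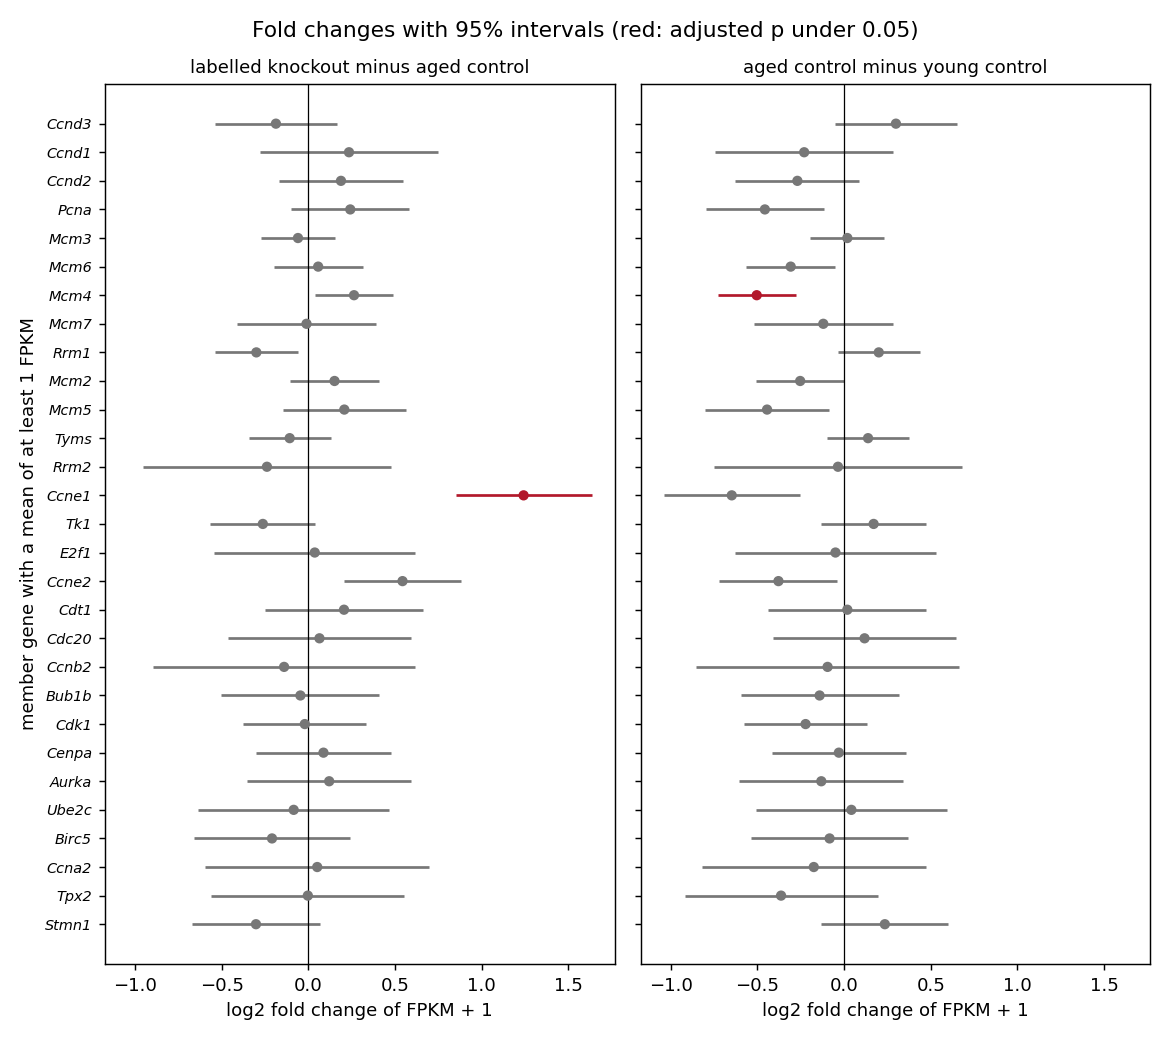
Log2 fold changes of FPKM + 1 (x axis) with 95% intervals for the 29 genes tested (y axis), for the libraries labelled knockout minus aged controls (left) and aged minus young controls (right), with red for an adjusted p under 0.05. Ccne1 at 1.24 on the left and Mcm4 at -0.50 on the right are the only red points, and the intervals of the mitotic genes include 0 in both panels.

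The D-type cyclins, which link growth signals to CDK4 and CDK6, passed in no comparison. Ccnd3 had 20.25, 20.79 and 20.87 FPKM in the libraries labelled knockout, 18.76, 22.04 and 31.79 FPKM in the aged controls and 18.13, 19.86 and 19.06 FPKM in the young controls. Ccnd1 had 10.09, 7.51 and 13.97 FPKM in the libraries labelled knockout, 8.7, 6.05 and 11.67 FPKM in the aged controls and 9.91, 10.05 and 10.59 FPKM in the young controls. Ccnd2 had 9.42, 7.10 and 11.82 FPKM in the libraries labelled knockout, 9.16, 7.09 and 7.89 FPKM in the aged controls and 10.45, 9.15 and 10.00 FPKM in the young controls. Groups overlapped in all these comparisons except Ccnd3 between the libraries labelled knockout and the young controls, and the adjusted p ran from 0.246 to 0.998. Of the exonic bases of Ccnd1 23.4% overlap a gene on the other strand, and Ccnd3 has an annotated pseudogene, Ccnd3-ps, so both values are uncertain.

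None of the 10 mitotic genes tested changed in any of the 3 comparisons by limma, none had an unadjusted p under 0.05, and limma voom on recovered fragments gave the same counts of 0. Libraries of 1 group spread widely. Cdc20, the activator of the anaphase-promoting complex, had 2.58, 4.38 and 6.07 FPKM in the libraries labelled knockout, 3.89, 3.01 and 5.07 FPKM in the aged controls and 3.93, 3.11 and 3.59 FPKM in the young controls. Ccnb2, cyclin B2, had 1.38, 3.69 and 6.0 FPKM in the libraries labelled knockout, 5.13, 2.76 and 3.53 FPKM in the aged controls and 4.06, 3.34 and 4.79 FPKM in the young controls. The range within the group labelled knockout spanned that of both control groups in both genes. Bub1b, a spindle checkpoint kinase, had 3.05, 1.49 and 2.21 FPKM in the libraries labelled knockout, 1.54, 2.88 and 2.61 FPKM in the aged controls and 2.57, 2.73 and 2.58 FPKM in the young controls. Cdk1, the mitotic kinase, had 1.72, 1.27 and 2.19 FPKM in the libraries labelled knockout, 1.84, 1.60 and 1.78 FPKM in the aged controls and 1.99, 1.95 and 2.69 FPKM in the young controls. For Cdk1 the aged controls lay below the young controls without overlap, with a log2 fold change of -0.22 and a 95% interval of -0.58 to 0.13 (limma adjusted p = 0.387). Ccnb2 has an annotated pseudogene, Ccnb2-ps, so its values are uncertain. So are those of Ube2c and Ccna2, of whose exonic bases 22.8% and 12.5% overlap a gene on the other strand.

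The usual proliferation markers were below the minimum level. Without that minimum, none of the 24 mitotic genes passed the adjusted threshold. The unadjusted limma p was under 0.05 for Top2a in aged against young controls and for Bub1 and Plk1 in the libraries labelled knockout against aged controls. It was also under 0.05 for Cenpf in the libraries labelled knockout against young controls. These are 1, 2 and 1 of the 24 genes, and the share of all genes without the minimum is not given. With the minimum, 27.7%, 24.1% and 9.27% of all genes tested had such a p in these comparisons. Bub1 rests on 2.44 to 66.35 recovered fragments per library and Cenpf on 0 to 33.18. Mki67 had 0.38, 0.08 and 0.17 FPKM in the libraries labelled knockout, 0.19, 0.13 and 0.19 FPKM in the aged controls and 0.34, 0.27 and 0.28 FPKM in the young controls. Top2a had 0.43, 0.28 and 0.74 FPKM in the libraries labelled knockout, 0.35, 0.38 and 0.43 FPKM in the aged controls and 1.30, 0.59 and 1.14 FPKM in the young controls. In both genes each aged control lay below each young control, and the libraries labelled knockout overlapped both control groups. The exact two-sided permutation test for aged against young controls gave p = 0.1 for each, the smallest possible. Of all genes tested, 21.8% lay lower in the aged controls without overlap, and the share below the minimum is not given. All other mitotic genes below the minimum overlapped between aged and young controls. Among them Plk1, Bub1, Nusap1 and Aurkb had higher means in the aged controls, and the rest had lower means. The 18 mitotic genes whose values are not listed above ranged from 0 to 2.84 FPKM in single libraries.

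The spread within groups differed most between the classes in the libraries labelled knockout. The median coefficient of variation of the 24 mitotic genes was 56.4% in the libraries labelled knockout, 28.5% in the aged controls and 27.3% in the young controls. For the 17 S-phase genes it was 10.1%, 15.7% and 13.9% in the same groups. Over the genes that passed the minimum level, 10 mitotic and 15 S-phase, the medians were 47.0% for mitotic and 10.1% for S-phase genes in the libraries labelled knockout, 22.3% for mitotic and 21.0% for S-phase genes in the aged controls, and 18.7% for mitotic and 10.5% for S-phase genes in the young controls, so the classes were close in the aged controls. The summed level of the mitotic genes was 17.56, 23.29 and 38.98 FPKM in the libraries labelled knockout, 25.12, 23.19 and 30.23 FPKM in the aged controls and 31.40, 23.44 and 32.27 FPKM in the young controls. Replicate 3 of the libraries labelled knockout was the highest of its group in 20 of the 24 mitotic genes and in 11 of the 17 S-phase genes, and replicate 1 was the lowest in 14 of the 24. The low values of many mitotic genes add counting error to this spread, whose share was not tested.

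The summed level of the S-phase genes was 134.5, 138.2 and 144.7 FPKM in the libraries labelled knockout, 132.4, 124.2 and 131.1 FPKM in the aged controls and 162.9, 141.7 and 155.3 FPKM in the young controls. The aged controls were lowest in this sum, without overlap with either other group. Pcna alone makes up a large part of it, and without Pcna the sums were 87.7 to 98.7 FPKM in the libraries labelled knockout, 81.7 to 100.6 FPKM in the aged controls and 90.1 to 105.4 FPKM in the young controls, which overlap. The ratio of S-phase to mitotic sums was 5.77 ± 1.98 in the libraries labelled knockout, 4.99 ± 0.565 in the aged controls and 5.35 ± 0.633 in the young controls (SD, n = 3 each), which also overlap. After removing group means, the median correlation over the 9 libraries was 0.48 between pairs of mitotic genes, 0.31 between pairs of S-phase genes and 0.33 between the classes. This is a description of genes that share the preparation and depth of each library.

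Markers of blood cells were set beside the mitotic sum. The 11 granulocyte lineage markers, 9 of which had a mean of at least 1 FPKM, summed to 32.8, 115.6 and 122.5 FPKM in the libraries labelled knockout, 17.3, 84.8 and 275.5 FPKM in the aged controls and 71.5, 6.63 and 144.0 FPKM in the young controls. The blood progenitor markers summed to 55.4, 52.6 and 74.9 FPKM in the libraries labelled knockout, 30.4, 39.0 and 50.8 FPKM in the aged controls and 52.5, 49.5 and 56.0 FPKM in the young controls. Most of the progenitor sum was Cd34 and Gata2, so it does not measure blood progenitor cells alone. Replicate 3 was the highest library of each group in both sums and in the mitotic sum, but the lowest aged control was replicate 1 in both marker sums and replicate 2 in the mitotic sum. In aged control replicate 3 the granulocyte sum was carried by genes of late granulocyte stages, among them S100a8 at 74.91 FPKM, S100a9 at 81.12 FPKM and Ngp at 75.29 FPKM. Elane, a gene of early granulocyte stages, was highest in other libraries, with 0.29, 14.91 and 9.59 FPKM in the libraries labelled knockout, 3.76, 4.92 and 4.34 FPKM in the aged controls and 7.82, 0.84 and 7.15 FPKM in the young controls. Fcnb was at 0 in replicate 1 of the libraries labelled knockout, replicate 1 of the aged controls and replicate 2 of the young controls. Ms4a3 was at 0 in the first of these, and Flt3 in replicates 1 and 3 of the libraries labelled knockout. The part of these cells in the spread of the mitotic genes was not tested.

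**Figure D3:**
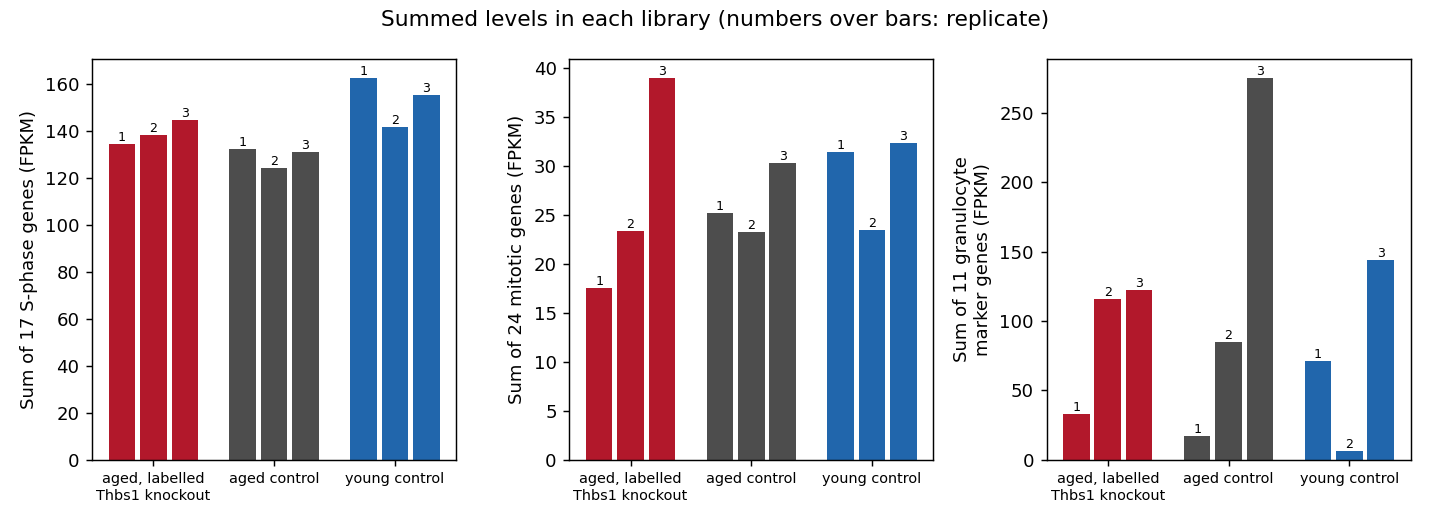
Summed FPKM (y axes, from 0) of the 17 S-phase genes, the 24 mitotic genes and the 11 granulocyte markers, with 1 bar per library and its replicate number above it. The mitotic sum spans 17.56 to 38.98 FPKM within the libraries labelled knockout, and replicate 3 is highest in each group for the mitotic and granulocyte sums.

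**Figure D4:**
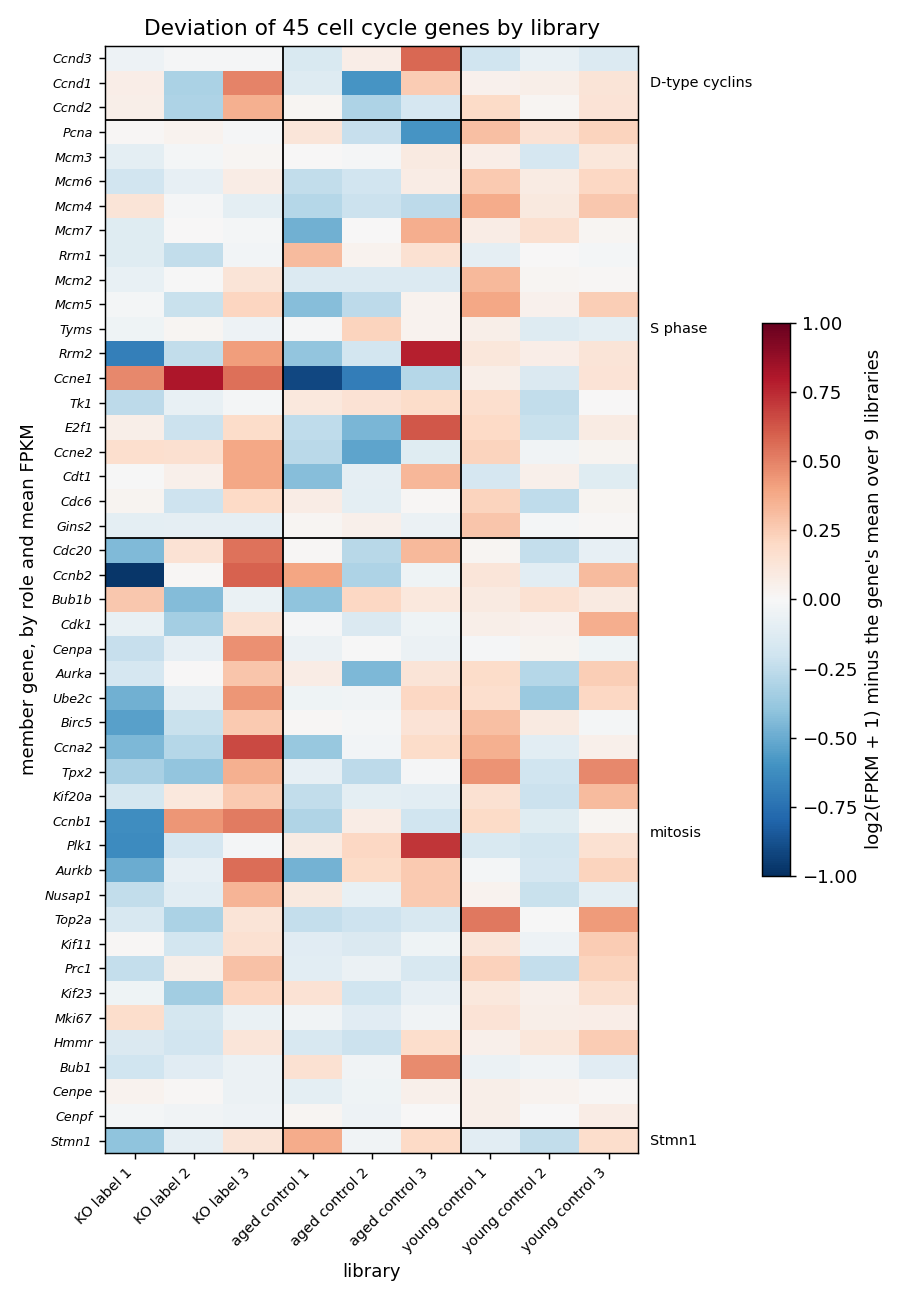
Deviation of log2(FPKM + 1) from the gene's mean over the 9 libraries (colour, from -1 to 1) for the 45 genes (rows, by role and level) in each library (columns). Ccne1 is high in the 3 libraries labelled knockout and low in the 3 aged controls, while most mitotic genes are high in replicate 3 and low in replicate 1 of the libraries labelled knockout.

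Other genes of the cell cycle, in lists of upstream regulators and remaining replication and mitosis genes, were read beside the 45. These lists, and that of the CDK inhibitors, were chosen with earlier results of these data known. Their shares of calls are therefore a description and not a test. Between the libraries labelled knockout and the aged controls, 4 of 27 regulators tested rose and none fell, where 2.78% of all genes rose and 2.01% fell. Myc, a growth-promoting transcription factor, had 157.68, 123.78 and 108.80 FPKM in the libraries labelled knockout, 70.58, 52.48 and 62.50 FPKM in the aged controls and 113.71, 107.15 and 97.08 FPKM in the young controls. Its relative Mycn had 3.04, 2.44 and 4.30 FPKM in the libraries labelled knockout, 0.60, 0.69 and 0.72 FPKM in the aged controls and 2.47, 1.95 and 2.96 FPKM in the young controls. Every library labelled knockout and every young control lay above every aged control in both genes, with log2 fold changes of 1.05 and 1.33 against the aged controls (limma adjusted p = 0.0065 and 0.00543).

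Cdk2, the kinase partner of cyclin E, averaged 19.4 FPKM in the libraries labelled knockout and 15.1 FPKM in the aged controls (log2 fold change 0.35, limma adjusted p = 0.0494), a call lost in 8 of the 9 fits with 1 library omitted. Ccng2, cyclin G2, a gene linked to cell cycle arrest, averaged 29.9 FPKM in the libraries labelled knockout and 20.3 FPKM in the aged controls (log2 fold change 0.55, limma adjusted p = 0.0316), lost in 7 of the 9. Of the 36 other replication genes tested, against the same 2.78% of all genes, Timeless, a replication fork protein, alone rose, with 18.9 FPKM in the libraries labelled knockout and 12.4 FPKM in the aged controls (log2 fold change 0.58, limma adjusted p = 0.028), lost in 5 of the 9. None of the 14 other mitosis genes tested changed, though 2 had an unadjusted p under 0.05, against 24.1% of all genes.

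Among the 6 CDK inhibitors tested 1 rose, against 2.78% of all genes. This was Cdkn1a, which encodes the arrest protein p21, with 361.14, 330.80 and 306.82 FPKM in the libraries labelled knockout, against 203.12, 163.64 and 163.88 FPKM in the aged controls, while the young controls had 256.82, 262.57 and 267.30 FPKM. The 3 groups did not overlap, and the log2 fold change was 0.91 (limma adjusted p = 0.00298), kept in all 9 fits with 1 library omitted. In aged against young controls 2 of 27 regulators and 1 of 6 CDK inhibitors fell, against 2.8% of all genes: Myc with a log2 fold change of -0.77 (limma adjusted p = 0.0362), Mycn with -1.04 (0.0278) and Cdkn1a with -0.57 (0.0355). These calls were lost in 5, 4 and 6 of the 9 fits. Thus Myc, which promotes the cycle, and Cdkn1a, which arrests it, were both higher in the libraries labelled knockout than in the aged controls. None of the genes in these lists changed between the libraries labelled knockout and the young controls.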

How the data were processed

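The authors deposited FPKM values, rounded to 2 decimals, for 52183 genes in 9 libraries. STAR, edgeR and FastQC 0.11.5 are listed per the submitters' processing notes, as are the builds mm10 and GRCm38. The sources used here give neither counting rules nor a strand setting. All gene identifiers matched GENCODE M21 (GRCm38), from which coordinates and exon lengths were taken. Depth was recovered from genes of 60 to 400 bases, whose low values were whole multiples of 1 fragment (tolerance 0.1) for 99.5% to 99.8% of values.

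Values were tested as log2(FPKM + 1) in R 4.3.3 with limma 3.58.1, in 1 fit of 9 libraries with a mean per group, eBayes with a trend and 6 residual degrees of freedom, with a minimum mean of 1 FPKM. Of the 36 pairs of libraries 0 held identical values. The same script was tested on simulated data. The members and lists were chosen with earlier results of these data known. Named genes were the called members, the 3 of highest level in the S-phase and mitotic lists, the D-type cyclins, common markers, and up to 6 members per comparison without overlap between groups. Alternatives were pseudocounts of 0.1 and 5, no filter, a minimum of 5 FPKM, median-ratio scaling, fits of only the compared groups, a replicate block, omission of single libraries, and voom on recovered fragments. Plots used matplotlib 3.10.9 in Python 3.11.15.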

Additional observations from a re-analysis of the deposited data

How the results depend on the processing

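Leaving out 1 library gave 5 to 1030 genes called between aged and young controls, 193 to 1152 between the libraries labelled knockout and the aged controls and 11 to 31 between the libraries labelled knockout and the young controls. Members called were 0 to 2, 1 in every such fit and 0 in every such fit, in the same order of comparisons. The median log2 fold change of the S-phase genes ranged from -0.28 to -0.030, from -0.023 to 0.15 and from -0.14 to -0.0086, and that of the mitotic genes from -0.17 to -0.076, from -0.13 to 0.099 and from -0.19 to -0.025. In aged against young controls no filter gave 39 genes and 0 members, the 2 groups alone gave 746 genes, and median-ratio scaling gave 215 higher and 200 lower against 141 and 330. In the libraries labelled knockout against aged controls no filter gave 146 genes and the 2 groups alone gave 163, and a minimum of 5 FPKM gave 0 members because Ccne1 lies below it. In the libraries labelled knockout against young controls no filter gave 15 genes and a minimum of 5 FPKM gave 12. The mitotic median for aged against young controls was -0.32 with a pseudocount of 0.1, and for the libraries labelled knockout against young controls -0.30 with that pseudocount and -0.33 with voom. Whether the replicate numbers pair the libraries is not stated. Correlations between libraries of the same number were -0.13 to 0.12, and 3 of 9 libraries were best matched by their own number. With 3 libraries per group these values cannot exclude a pairing. The replicate block gave 183 genes and 0 members between aged and young controls. No called result changed sign under these alternatives. The causes were not tested. The 16 members below 1 FPKM were tested only without the filter, where none passed, and the lowest, Cenpe and Cenpf, rest on 0 to 33 recovered fragments per library.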

Other observations

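Bub1b lies 0.471 Mb and Nusap1, a spindle protein gene, 1.49 Mb from Thbs1 on chromosome 2. Bub1b averaged 2.25 ± 0.781 FPKM in the libraries labelled knockout and 2.34 ± 0.709 FPKM in the aged controls (SD, n = 3 each, limma adjusted p = 0.918). Nusap1 had 0.40, 0.55 and 1.11 FPKM in the libraries labelled knockout against 0.78, 0.58 and 1.0 FPKM in the aged controls, below the level tested. Plk1, a mitotic kinase, had 0.15, 0.58 and 0.75 FPKM in the libraries labelled knockout and 0.88, 1.05 and 1.91 FPKM in the aged controls, and Bub1, a checkpoint kinase, had 0.02, 0.08 and 0.12 FPKM in the libraries labelled knockout and 0.30, 0.14 and 0.62 FPKM in the aged controls. Neither pair of groups overlapped, and both genes were chosen here after their values were seen. Of all genes tested, 11.1% lay lower in the libraries labelled knockout than in the aged controls without overlap.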
